A study of Mus musculus with 12 samples.

Results

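This is a comparison of prostaglandin E2 (PGE2) with vehicle in mouse intestinal organoids that lack Ptger4, the gene for the PGE2 receptor EP4. It rests on 4 of the 12 deposited H3K27ac libraries, the 2 Ptger4 knockout (KO) PGE2 libraries against the 2 KO vehicle libraries, and on the scores that these libraries have in all 166517 intervals called by the peak caller SEACR. The KO PGE2 organoids received PGE2 at 50 nM and the KO vehicle organoids the carrier alone, and both groups share the Ptger4 KO genotype and culture from crypts in Matrigel with EGF, Noggin, R-spondin and the GSK3 inhibitor CHIR-99021. The treatment time is given as day 3 in the sample characteristics and as 6 days in the treatment protocol, and the series' design text names a dimethyl form of PGE2. The other 8 libraries, wild type (WT) organoids with vehicle, arachidonic acid (AA) at 25 µM or PGE2 and KO organoids with AA, entered the fit to estimate the spread between libraries. The labels leave out how the knockout was made and whether replicates were grown from different mice or cultures. The p-values therefore cover only the spread between libraries, which may be technical.

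PGE2 is a lipid signal made from arachidonic acid, and it acts through the G protein-coupled receptors EP1 to EP4. EP4 and EP2 couple to the stimulatory G protein, which raises cAMP, and cAMP activates protein kinase A and, through it, transcription factors of the CREB family. In the intestinal epithelium PGE2 is known as a signal of repair and of stem cell behaviour. H3K27ac, the acetylation of lysine 27 on histone H3, marks active promoters and enhancers, and CUT&RUN measures it by cutting and releasing DNA beside an antibody bound to chromatin.

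The question was whether PGE2 still altered H3K27ac where EP4 was missing. 1 interval, inside the gene of the Hedgehog signal transducer Smo, rose with PGE2 past the threshold (log2 change 0.99 ± 0.11, SE). That call was lost when either KO vehicle library was left out and under several other settings. No interval at Ptger4, at another prostanoid receptor gene, at a CREB or cAMP target gene, or at a stem cell marker passed. The stem cell, Wnt, YAP, epithelial identity and fetal-like lists each had most of their genes lower with PGE2, with list medians from -0.24 to -0.20 in KO PGE2 replicate 2 and from -0.067 to 0.031 in replicate 1. Most genes of the whole table were lower too, 9962 of 17499, with medians of -0.12 in replicate 2 and 0.024 in replicate 1. These lists had median vehicle scores from 0.165 to 0.224, above the 0.156 and 0.155 of all genes. Of 10 classes of intervals by strength, the strongest, with 0.185 and 0.182 with vehicle, had a median of -0.20 in replicate 2. Whether the lists differ from other intervals of their strength was not tested.

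Scores were divided by each library's median score, brought to a common level of 0.116 and analysed as log2(scaled score + 0.0583), so a log2 change understates the change of a weak interval. The test was limma over the 166465 intervals that passed a filter on low scores, with Benjamini-Hochberg adjustment and a threshold of 0.05. In limma, 1 of 166465 intervals passed (0.000601% of those tested). At an unadjusted p under 0.05 there were 11764 intervals (7.07%), of which 6380 were higher with PGE2 (3.83%) and 5384 lower (3.23%). Without the scaling by library median the same split was 3034 higher and 11411 lower, and 0 passed. An exact permutation test of 2 libraries against 2 cannot go below a p of 1/3, so no single-value test is given.

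Before scaling, the median score was 0.119 in both KO vehicle libraries, 0.113 in KO PGE2 replicate 1 and 0.0941 in KO PGE2 replicate 2. The 8 strongest intervals held 8.64% of the signal in replicate 1 and 17.8% in replicate 2, against 6.28% and 6.19% in the vehicle libraries and 4.67% to 7.73% in the other 8. The sequencing depth is unknown. Each gene stands by its strongest interval, by mean of the 12 libraries, among those within 50 kb of its span, which gave 17499 genes. Of 12 markers of epithelial identity, such as Epcam, Cdh1, Cdx2 and Vil1, all had an interval, with median scores of 0.234 and 0.203 with vehicle and 0.203 and 0.171 with PGE2, above the 0.156, 0.155, 0.161 and 0.141 of all genes in the same libraries. Of the fibroblast markers 3 of 6 had an interval (medians 0.116 and 0.0905 with vehicle, 0.210 and 0.136 with PGE2), while the 9 genes with an interval in the longer fibroblast list had medians of 0.133 and 0.135 with vehicle and 0.125 and 0.153 with PGE2. The 5 immune markers had medians of 0.112 and 0.114 with vehicle and 0.123 and 0.0977 with PGE2, and the 5 endothelial markers 0.163 and 0.154 with vehicle and 0.130 and 0.126 with PGE2. No marker with an interval was at 0 in any of the 4 libraries.

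Promoters of 4 genes are shown: that of Ptger4, the missing receptor, and those of the 3 genes of the CREB and cAMP target list whose promoter holds the full cAMP response element. Each lay whole inside a scored interval. The 3 genes are Areg, which encodes the EGF receptor ligand amphiregulin, the antiproliferative gene Btg2 and the MAP kinase phosphatase gene Dusp1. Each sequence is the 250 bases before the start given by RefSeq for GRCm38.p6, the assembly behind the mm10 coordinates of the intervals, read 5′ to 3′ on the gene's strand, with each copy of the element, TGACGTCA, in capitals. The positions are chr15:5244188-5244437 (minus strand) for Ptger4, chr5:91139349-91139598 (plus) for Areg, chr1:134079156-134079405 (minus) for Btg2 and chr17:26508473-26508722 (minus) for Dusp1.
Ptger4: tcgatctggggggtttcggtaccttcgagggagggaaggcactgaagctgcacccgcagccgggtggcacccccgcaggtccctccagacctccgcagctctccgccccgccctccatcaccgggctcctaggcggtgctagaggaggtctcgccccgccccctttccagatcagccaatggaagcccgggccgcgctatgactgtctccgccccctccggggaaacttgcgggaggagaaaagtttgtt
Areg: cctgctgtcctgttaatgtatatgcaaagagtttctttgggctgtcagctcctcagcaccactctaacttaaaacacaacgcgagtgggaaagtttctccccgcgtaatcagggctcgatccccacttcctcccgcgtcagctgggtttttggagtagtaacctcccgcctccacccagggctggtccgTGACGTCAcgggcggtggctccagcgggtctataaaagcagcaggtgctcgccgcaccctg
Btg2: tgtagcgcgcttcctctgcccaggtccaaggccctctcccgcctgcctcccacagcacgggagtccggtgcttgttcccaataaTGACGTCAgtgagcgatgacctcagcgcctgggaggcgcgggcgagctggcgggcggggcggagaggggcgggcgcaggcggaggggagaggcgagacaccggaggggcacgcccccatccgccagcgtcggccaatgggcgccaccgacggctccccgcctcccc
Dusp1: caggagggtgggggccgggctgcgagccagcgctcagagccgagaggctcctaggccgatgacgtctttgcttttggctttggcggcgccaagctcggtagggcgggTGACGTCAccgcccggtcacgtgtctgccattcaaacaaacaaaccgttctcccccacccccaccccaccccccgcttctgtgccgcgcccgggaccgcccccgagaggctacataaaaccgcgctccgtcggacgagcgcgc

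The element, which reads the same on both strands, was absent from the Ptger4 window and began 61 bases before the start of Areg, 166 before that of Btg2 and 143 before that of Dusp1. It occurred in 409 of 21263 RefSeq promoters of this length (1.92%), and its shorter form TGACG, searched on both strands and contained in the full element, in 20.2%. Among the 17 genes of the CREB and cAMP target list with a promoter in the table, only the 3 shown held the full element. A match is only a run of letters and was not tested for binding.

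The interval over the Ptger4 start (chromosome 15, 5243427 to 5245375) scored 0.121 and 0.292 with vehicle and 0.120 and 0.158 with PGE2. The groups overlapped, and KO vehicle replicate 2 was the highest of the 4 libraries (log2 change -0.35 ± 0.25, SE; limma adjusted p = 0.810). Over the Areg start the scores were 0.217 and 0.232 with vehicle and 0.249 and 0.165 with PGE2, so replicate 1 was above both vehicle libraries and replicate 2 below both. Over the Btg2 start they were 0.182 and 0.164 with vehicle and 0.197 and 0.177 with PGE2. Over the Dusp1 start they were 0.173 and 0.109 with vehicle and 0.140 and 0.115 with PGE2. The groups overlapped at the starts of all 4 genes, with limma adjusted p between 0.810 and 0.965. Over all genes with an interval at the start, the 236 with the element in a promoter had a median log2 change of 0.034 in replicate 1 and -0.20 in replicate 2, and the 7444 without it 0.010 and -0.17. None of either group passed in limma.

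Ptger4 had 9 intervals, 3 inside its span and the others up to 48189 bp from it. H3K27ac scores do not test whether a gene is deleted. Across the 9, scores ran from 0.0762 to 0.185 and from 0.0553 to 0.292 in the vehicle libraries, and from 0.0523 to 0.162 and from 0.0698 to 0.175 with PGE2. The log2 change lay between -0.46 and 0.36, with 3 intervals higher and 6 lower, and limma adjusted p between 0.724 and 0.990. Replicates 1 and 2 were both lower only at the intervals from 5243427 (-0.49 and -0.21) and from 5257559 (-0.38 and -0.55). They were both higher only at that from 5265189 (0.14 and 0.59). At the rest of the 9 the replicates had opposite signs. The interval from 5257559 to 5262180 was the only one of the 9 without overlap between the groups, with scores of 0.185 and 0.167 with vehicle and 0.121 and 0.102 with PGE2. Over all intervals tested, 18.4% were lower with no overlap and 15.8% higher.

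The Smo interval (chromosome 6, 29747487 to 29749343, inside the gene span and 11990 bp from its listed start) scored 0.657 and 0.615 in the KO vehicle libraries and 1.23 and 1.42 in KO PGE2 replicates 1 and 2. Both PGE2 libraries were above both vehicle libraries and above the other 8 libraries, which ran from 0.621 to 1.20 with a median of 0.912. Smo encodes the membrane protein that carries the Hedgehog signal into the cell. Its log2 change was 0.89 in replicate 1 and 1.09 in replicate 2, each against the vehicle mean, and 0.99 ± 0.11 (SE) together, with limma adjusted p = 0.000667. The KO vehicle libraries stood at the low end of the 12: the KO AA libraries had 0.915 and 0.908 and the WT vehicle libraries 0.969 and 0.807 at this interval.

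In WT organoids the Smo interval scored 1.20 and 1.06 with PGE2, a log2 change of 0.33 ± 0.11 (SE; limma adjusted p = 0.753). The KO change was larger by 0.66 ± 0.15, which did not pass as an interaction (limma adjusted p = 0.609). The Smo call held with either PGE2 library left out (adjusted p = 3.48e-05 without replicate 1 and 0.0269 without replicate 2) and was lost without KO vehicle replicate 1 (0.0655) or replicate 2 (0.226). It was also lost without scaling (0.80, adjusted p = 0.0561) and after quantile normalization (0.59, adjusted p = 0.152), without the trend in the fit (adjusted p = 0.561), with only intervals above the median mean score (0.0968) and with only the 4 compared libraries (adjusted p = 0.930). Of the other Hedgehog genes, none passed: the receptor gene Ptch1 scored 0.161 and 0.212 with vehicle and 0.161 and 0.183 with PGE2, and the transcription factor gene Gli2 0.167 and 0.202 with vehicle and 0.133 and 0.144 with PGE2. Of the 13 Hedgehog genes with an interval, 4 were higher and 9 lower, and Smo's second interval was lower.

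The 9 intervals that followed Smo among the higher ones did not pass (limma adjusted p from 0.111 to 0.236). The interval beside 9230019H11Rik (chromosome 10, 3110840 to 3117340) scored 0.324 and 0.355 with vehicle and 0.626 and 1.42 with PGE2 in replicates 1 and 2. The interval inside 2210408I21Rik (chromosome 13, 77438415 to 77439172) scored 3.33 and 3.67 with vehicle and 5.88 and 16.1 with PGE2. Both PGE2 libraries were above both vehicle libraries at these intervals, and in 7 of the 10 intervals replicate 2 was the higher PGE2 library.

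A different set of the 10 was weak with vehicle and moderate with PGE2. At Ssbp3, which encodes a partner of LIM-domain transcription complexes, the interval (chromosome 4, 106967960 to 106969214) scored 0.0534 and 0.0283 with vehicle and 0.313 and 0.229 with PGE2 (log2 change 1.73 ± 0.28, SE; limma adjusted p = 0.111). At Sulf2, an extracellular sulfatase gene, an interval 43547 bp from the span scored 0.0373 and 0.0799 with vehicle and 0.512 and 0.235 with PGE2. At Zfc3h1, a gene of nuclear RNA decay, the scores were 0.0236 and 0.0482 with vehicle and 0.206 and 0.278 with PGE2. In all 3, the vehicle libraries lay below the common median of 0.116 and the PGE2 libraries above it. The other 8 libraries ran from 0.102 to 0.194 at Ssbp3, 0.0429 to 0.207 at Sulf2 and 0.0801 to 0.149 at Zfc3h1. The PGE2 scores lay above these ranges. Both vehicle scores lay below them at Ssbp3 and Zfc3h1, and at Sulf2 only that of replicate 1 did. The other named intervals of this direction were at Gm40363, Gm45871, Gm39469 and Mdga2, the last a gene of synaptic adhesion, with log2 changes from 0.86 to 1.21. Of the 10 intervals, 6 lay inside the span of the gene, none over a listed start, and 8 had the same sign of change in WT organoids. That count was not set against all intervals, so it does not show a response shared with WT organoids.

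The 10 leading intervals in the other direction had scores from 0.165 to 0.421 with vehicle and from 0 to 0.0946 with PGE2, and none passed (limma adjusted p from 0.111 to 0.369). At Col19a1, a collagen gene, the interval (chromosome 1, 24299289 to 24299965) scored 0.165 and 0.421 with vehicle, was listed at 0 in PGE2 replicate 1 and scored 0.0209 in replicate 2. Near Zfp148, a zinc finger transcription factor gene, an interval 32965 bp outside the span (chromosome 16, 33346737 to 33347810) scored 0.245 and 0.186 with vehicle and 0.0623 and 0.0290 with PGE2. The PGE2 scores at Zfp148 lay below those of the other 8 libraries, 0.0809 to 0.185, and the vehicle scores above them, replicate 2 only just.

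Near Sync, which encodes the filament protein syncoilin, the scores were 0.220 and 0.234 with vehicle and 0.0797 and 0.0304 with PGE2. At Hyal5, a hyaluronidase gene, they were 0.211 and 0.238 with vehicle and 0.0946 and 0.0578 with PGE2. Near Vxn they were 0.378 and 0.251 with vehicle and 0.0378 and 0.0536 with PGE2. At Vxn too the KO vehicle scores stood above the other 8 libraries, which ran from 0.0276 to 0.173. The remaining 5 were Siglece, a myeloid sialic acid receptor gene, the kinase genes Tec and Styk1, the ribosome biogenesis gene Rcl1, and Cfap20dc. Of the 10 lower intervals, 5 lay inside a gene span and none over a listed start. In WT organoids 3 of the 10 had the same sign of change, a count also not set against all intervals. No interaction passed (smallest limma adjusted p = 0.374, at Vxn).

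**Figure D1:**
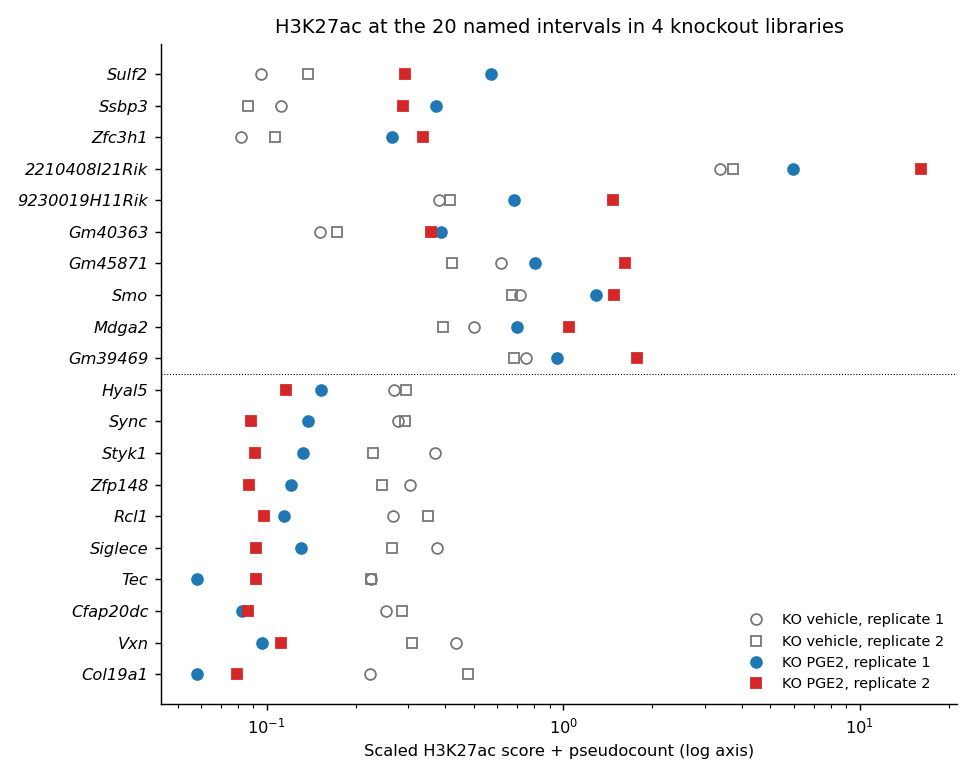
Scaled H3K27ac score plus the pseudocount (x axis, log scale) in the 4 KO libraries for the 20 named intervals (y axis, by gene); open symbols are vehicle and filled symbols PGE2, circles replicate 1 and squares replicate 2. The 10 intervals above the dotted line were higher with PGE2 and the 10 below it lower, and only Smo passed in limma (adjusted p = 0.000667).

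The signalling genes between receptor and transcription factor leaned both ways. Among the prostanoid receptor genes, 1 of 7 was higher (Ptger3) and 6 lower, with a median log2 change of -0.22 (-0.11 in replicate 1 and -0.26 in replicate 2), beside -0.047 over all genes, of which 7537 of 17499 were higher (43.1%). Ptger3, the gene of the inhibitory receptor EP3, scored 0.231 and 0.168 with vehicle and 0.322 and 0.123 with PGE2, so the PGE2 libraries lay on either side of the vehicle libraries. Ptger2, the gene of the other cAMP-raising receptor, scored 0.160 and 0.132 with vehicle and 0.0969 and 0.140 with PGE2 at an interval 45075 bp from its span. None of the 7 had an unadjusted p under 0.05 in limma, and over all genes 614 were higher at that level (3.51%) and 749 lower (4.28%).

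Among the genes of prostaglandin synthesis, transport and breakdown, 5 of 15 were higher and 10 lower (median -0.17). Ptgr2, a reductase gene that inactivates prostaglandin metabolites, led the list at its start with 0.286 and 0.268 with vehicle and 0.198 and 0.157 with PGE2. Both PGE2 libraries were below both vehicle libraries (log2 change -0.51 ± 0.16, SE; limma adjusted p = 0.564). The thromboxane synthase gene Tbxas1 scored 0.259 and 0.250 with vehicle and 0.181 and 0.188 with PGE2. The cyclooxygenase gene Ptgs2 scored 0.152 and 0.138 with vehicle and 0.182 and 0.173 with PGE2, and the PGE2 synthase gene Ptges 0.0700 and 0.0813 with vehicle and 0.114 and 0.116 with PGE2. Both were higher in both PGE2 libraries, neither past the test (limma adjusted p = 0.911 and 0.868).

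Of the cAMP signalling machinery, 9 of 22 genes were higher and 13 lower (median -0.049). The adenylyl cyclase gene Adcy3 scored 0.0944 and 0.0881 with vehicle and 0.326 and 0.154 with PGE2, so replicate 1 was the higher PGE2 library (log2 change 0.93 ± 0.28, SE; limma adjusted p = 0.560). The regulatory subunit gene Prkar1a of protein kinase A scored 0.124 and 0.140 with vehicle and 0.226 and 0.184 with PGE2. The catalytic subunit gene Prkacb scored 0.190 and 0.175 with vehicle and 0.0930 and 0.146 with PGE2, the opposite direction. None of the 22 passed.

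Of the CREB family and cAMP target genes, 8 of 22 were higher and 14 lower, with medians of 0.0039 in replicate 1 and -0.21 in replicate 2. Areg's strongest interval (chromosome 5, 91155884 to 91158221, 7452 bp outside the span) scored 0.271 and 0.322 with vehicle and 0.214 and 0.108 with PGE2. Both PGE2 libraries were below both vehicle libraries, replicate 2 by the larger gap (log2 change -0.38 in replicate 1 and -1.09 in replicate 2, -0.73 ± 0.19, SE, together; limma adjusted p = 0.465). With replicate 1 left out, the lone replicate 2 brought the interval past the threshold (-1.09, adjusted p = 0.0130). The CREB gene Creb1 scored 0.294 and 0.261 with vehicle and 0.224 and 0.188 with PGE2 at its start. Atf3, a stress-induced transcription factor gene, scored 0.233 and 0.192 with vehicle and 0.111 and 0.139 with PGE2 at an interval 49176 bp from its span. Over the Atf3 start the log2 change was 0.18 (limma adjusted p = 0.902). Immediate early genes that cAMP induces had no common direction. Fos, at an interval 36363 bp from its span, scored 0.229 and 0.195 with vehicle and 0.214 and 0.171 with PGE2, and Junb 0.206 and 0.174 with vehicle and 0.204 and 0.182 with PGE2. At Fosb the PGE2 libraries lay on either side of the vehicle libraries, with 0.196 and 0.147 with vehicle and 0.105 and 0.228 with PGE2. The groups did not overlap at Ier2, which was lower (0.230 and 0.201 with vehicle and 0.190 and 0.187 with PGE2), or at the clock gene Per1, which was higher (0.167 and 0.195 with vehicle and 0.218 and 0.217 with PGE2). In the whole list of 22, 7 genes were lower without overlap and 2 higher, beside 3606 and 2336 of all 17499 genes.

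Among the stem cell markers, 4 of 19 were higher and 15 lower. Of the 19, 16 were lower in replicate 2 and 10 in replicate 1 (median log2 change -0.23 and -0.013). Over all 17499 genes, 11161 were lower in replicate 2 and 8208 in replicate 1. Lgr5, the R-spondin receptor gene that marks crypt base stem cells, scored 0.185 and 0.182 with vehicle and 0.191 and 0.147 with PGE2. Its PGE2 libraries lay on either side of the vehicle libraries. Sox9, a crypt transcription factor gene, led the list with 0.181 and 0.308 with vehicle and 0.125 and 0.133 with PGE2 (log2 change -0.66 ± 0.25, SE; limma adjusted p = 0.647). Tnfrsf19, a Wnt target in stem cells, scored 0.225 and 0.137 with vehicle and 0.103 and 0.0825 with PGE2 at an interval 9113 bp from its span. At these intervals of Sox9 and Tnfrsf19 the groups did not overlap, and the vehicle libraries differed from each other by more than the PGE2 libraries did. Over the Tnfrsf19 start the log2 change went the other way (0.52, limma adjusted p = 0.735). Of the Wnt genes 6 of 21 were higher and 15 lower, led by Sox9 and by Nkd1, a Wnt feedback inhibitor gene, with 0.0784 and 0.0538 with vehicle and 0.243 and 0.165 with PGE2.

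The growth factor and regeneration lists had the same shape. Of 13 EGF family genes, all 13 were lower than the vehicle mean in replicate 2 and 5 in replicate 1, with medians of -0.22 and 0.051. Of all 17499 genes, 11161 and 8208 were lower in these replicates. The EGF receptor gene Egfr scored 0.198 and 0.225 with vehicle and 0.226 and 0.193 with PGE2, and the ligand gene Btc 0.312 and 0.274 with vehicle and 0.423 and 0.251 with PGE2. In both genes replicate 1 was the highest of the 4 libraries and replicate 2 the lowest. Of the fetal-like and regenerative genes 5 of 23 were higher and 18 lower, with medians of -0.0043 in replicate 1 and -0.20 in replicate 2, and Areg led this list as well. Of the YAP and TEAD genes 6 of 21 were higher and 15 lower, led by the Hippo regulator gene Wwc1, which scored 0.272 and 0.311 with vehicle and 0.214 and 0.134 with PGE2. Wwtr1, which encodes the YAP partner TAZ, went the other way at an interval 102337 bp from its listed start. It scored 0.0547 and 0.118 there with vehicle and 0.117 and 0.343 with PGE2. Over the Wwtr1 start the log2 change was -0.73 (limma adjusted p = 0.684), so the gene's intervals had no common direction.

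Among the lists of differentiated cells, the enteroendocrine list had the highest median (0.21, with 8 of 12 genes higher and 4 lower). Its median was 0.29 in replicate 1 and 0.079 in replicate 2, but -0.0099 and 0.17 over all intervals of its genes. Neurog3, the master regulator gene of enteroendocrine fate, scored 0.0857 and 0.0637 with vehicle and 0.151 and 0.158 with PGE2 at an interval 23667 bp from its span. The hormone gene Gip scored 0.225 and 0.176 with vehicle and 0.0930 and 0.157 with PGE2, lower in both PGE2 libraries. Of 9 Paneth cell genes 6 were higher and 3 lower, with a median log2 change of 0.066 (0.16 in replicate 1 and 0.29 in replicate 2). Only 2 of the 9 were higher in both replicates, beside 4088 of 17499 genes in all. Both lists were weak, with a median score over the 4 libraries no higher than 0.152, and the Paneth median was below 0 without scaling (-0.065).

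Enterocyte genes were near even, with 12 of 27 higher and 15 lower. The brush border gene Cdhr2 scored 0.137 and 0.153 with vehicle and 0.297 and 0.228 with PGE2 at an interval 6596 bp from its listed start. Its partner Cdhr5 scored 0.218 and 0.300 with vehicle and 0.206 and 0.158 with PGE2 at its start. The groups did not overlap at either interval and the directions were opposite. Over the Cdhr2 start the log2 change was -0.043. In the goblet list (5 of 14 higher and 9 lower) the mucin gene Muc2 scored 0.0372 and 0.0742 with vehicle and 0.135 and 0.191 with PGE2 at an interval 15382 bp from its span. In the tuft cell list 5 of 14 were higher and 9 lower, and in the proliferation list 5 of 20 were higher and 15 lower. None of these genes passed in limma.

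The epithelial identity list had 6 of 25 genes higher and 19 lower, with 22 lower in replicate 2 and 9 in replicate 1 (medians -0.22 and 0.031). Beside it, 11161 of all 17499 genes were lower in replicate 2 and 8208 in replicate 1. Klf5, a transcription factor gene of proliferating epithelium, led it with 0.277 and 0.243 with vehicle and 0.201 and 0.180 with PGE2 (log2 change -0.35 ± 0.15, SE; limma adjusted p = 0.675). Hnf4a, a regulator of intestinal differentiation, scored 0.233 and 0.199 with vehicle and 0.187 and 0.162 with PGE2 at its start. The housekeeping list, given for scale, had 8 of 17 higher and 9 lower, with medians of 0.0064 in replicate 1 and -0.16 in replicate 2. Lists of cells that crypt cultures may carry over were mixed. Higher were 6 of 9 fibroblast genes, 8 of 12 immune genes and 4 of 10 endothelial genes, beside 7537 of all 17499. The fibroblast median was 0.20 in replicate 1 and -0.15 in replicate 2, and the immune median -0.017 and -0.027. In the fibroblast list 2 genes were higher in both replicates and in the immune list 2, beside 4088 of all 17499. The BMP antagonist gene Grem1 led the fibroblast list in the other direction (0.133 and 0.193 with vehicle, 0.0643 and 0.0628 with PGE2). Tek, an endothelial receptor gene, scored 0.256 and 0.235 with vehicle and 0.130 and 0.120 with PGE2 (log2 change -0.73 ± 0.18, SE; limma adjusted p = 0.452). Fewer cells of a type and less H3K27ac per cell cannot be told apart in these bulk libraries. The part of these cell types in the results was not tested.

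Across the 21 lists, 1 of 334 genes passed (Smo), beside 1 of 17499 genes in all (0.00571%). The list median was below 0 in 17 lists, and replicate 2 was below replicate 1 in 19, the exceptions being the Paneth list and, by a small margin, the Hedgehog list. The median over all genes was 0.024 in replicate 1 and -0.12 in replicate 2, each gene at its strongest interval, and -0.0051 and -0.040 over all intervals with a gene. With replicate 2 left out, the medians of the CREB (0.0039), EGF (0.051), cAMP machinery (0.039), epithelial identity (0.031) and housekeeping (0.0064) lists were above 0. Without scaling, the fibroblast (-0.085) and immune (-0.066) medians turned below 0, in a table whose median over all intervals moved from -0.015 to -0.15.

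**Figure D2:**
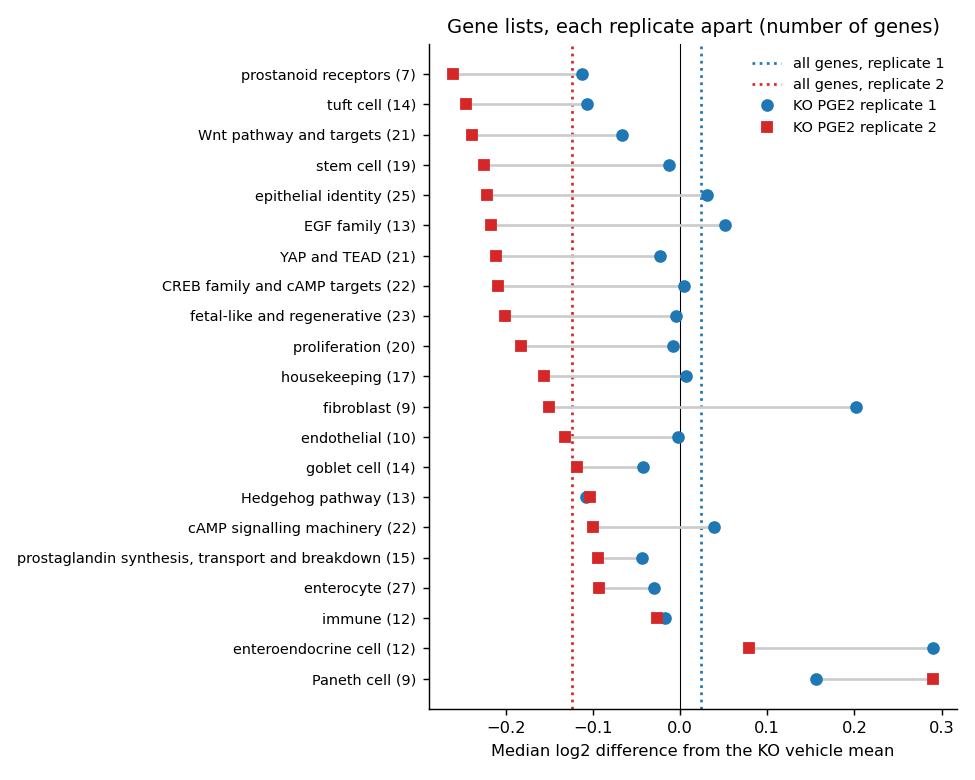
Median log2 difference from the mean of the KO vehicle libraries (x axis) for 21 gene lists (y axis, number of genes with an interval in parentheses), with KO PGE2 replicate 1 as circles and replicate 2 as squares. Dotted lines are the medians over all genes, 0.024 for replicate 1 and -0.12 for replicate 2, and the squares lie left of the circles in 19 lists.

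The PGE2 libraries shared little with each other. The Spearman correlation of scores across all intervals was 0.385 between the vehicle libraries, 0.328 and 0.303 between replicate 1 and the vehicle libraries, 0.169 and 0.150 between replicate 2 and the vehicle libraries, and 0.130 between the PGE2 libraries. At the 7988 intervals over a listed start it was 0.492 between the vehicle libraries and 0.346 between the PGE2 libraries. When the PGE2 replicates were each set against a different vehicle library, so that no library was used on both sides, their log2 changes correlated across intervals at r = 0.015 with vehicle libraries of the same number and at 0.014 with the other assignment. The sign was the same in 50.7% of intervals with the former. These values describe intervals within the libraries, which are not independent replicates.

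Replicate 2 differed from vehicle according to how strong an interval was. Intervals were sorted into 10 equal classes by their mean in the 8 libraries outside the comparison. In replicate 2 the median log2 difference from vehicle went from 0.37 in the weakest class, with a median score of 0.115 against 0.0715 and 0.0730 with vehicle, to -0.20 in the strongest, with 0.153 against 0.185 and 0.182. In replicate 1 it lay between -0.018 and 0.027 in all 10 classes, and between the vehicle libraries the difference lay between -0.0098 and 0.016. The exception at the top of the range was the 8 strongest intervals of all, each of them higher in replicate 2. The strongest (chromosome 2, 98663328 to 98667871, with no gene within 50 kb) scored 357 and 350 with vehicle, 510 with PGE2 replicate 1 and 1114 with replicate 2. The one inside Chl1, a neural adhesion gene (chromosome 6, 103648655 to 103649756), scored 84.1 and 89.8 with vehicle and 113 and 187 with PGE2. None of the 8 passed in limma (adjusted p from 0.518 to 0.981). The fitted SE was 5.05 at the strongest, beside a log2 change of 1.09, and 0.21 at the weakest of the 8, near Pak3. With an SE of that size the test could hardly pass at the strongest interval, so it does not show that a change was absent there. Their vehicle scores, from 18.8 to 357, lay far above the common median of 0.116. Relative to the vehicle mean they were 1.28 to 1.45 times as high in replicate 1 and 2.15 to 3.46 times in replicate 2. The named intervals of 9230019H11Rik (1.84 and 4.18 times) and 2210408I21Rik (1.68 and 4.59 times) also rose more in replicate 2. Whether such intervals lie on repeats was not tested.

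**Figure D3:**
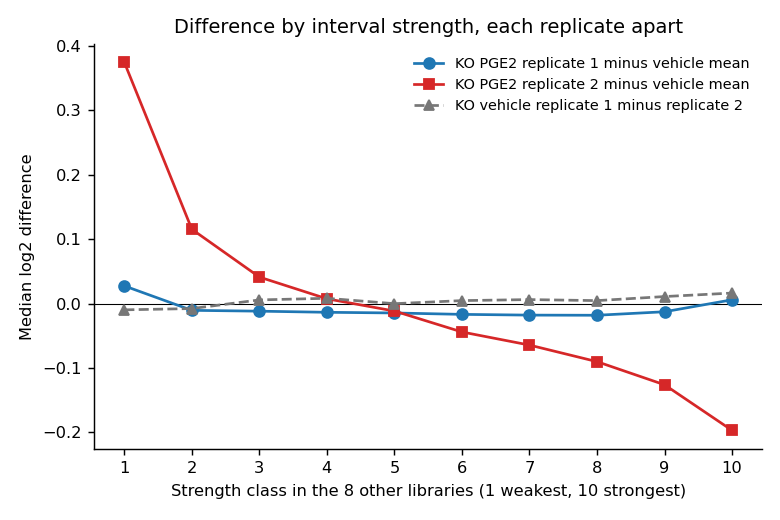
Median log2 difference (y axis) in 10 classes of interval strength (x axis, 1 the weakest), for KO PGE2 replicate 1 (circles) and replicate 2 (squares) against the KO vehicle mean and for the vehicle libraries against each other (triangles). Replicate 2 runs from 0.37 to -0.20 across the classes, while replicate 1 and the vehicle libraries stay near 0.

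Gene starts and chromosome X lay in opposite directions in replicate 2. At intervals over a listed start the median score was 0.137 in replicate 2, below the other 11 libraries (0.149 to 0.179), and 0.164 in replicate 1, beside 0.163 and 0.160 with vehicle. The median log2 difference there was -0.17 in replicate 2 and 0.010 in replicate 1. Starts are strong intervals, with a median of 0.164 in the 8 libraries outside the comparison, and the classes of strength 9 and 10, with medians of 0.156 and 0.189 there, had -0.13 and -0.20 in replicate 2, on either side of the value at starts. At the 2031 intervals of chromosome X the median score was 0.114 in replicate 2, above the other 11 libraries (0.0864 to 0.0989), and 0.0953 in replicate 1, beside 0.0917 and 0.0931 with vehicle. The median log2 difference on chromosome X was 0.12 in replicate 2, against -0.066 to -0.020 on the 19 autosomes. Chromosome X intervals were weak, and autosomal intervals of the same strength classes had 0.040 in replicate 2. Chromosome X was above the autosomes in 9 of the 10 classes, by a median of 0.074. In replicate 1 chromosome X had 0.0051. A difference in 1 library has no replicate, and whether it belongs to the treatment was not tested.

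**Figure D4:**
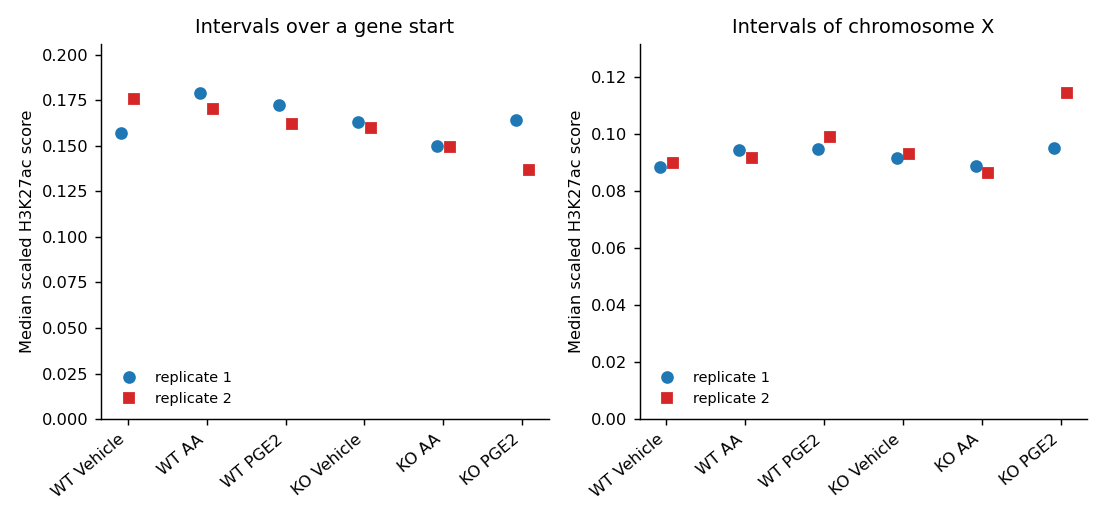
Median scaled H3K27ac score (y axes) in each of the 12 libraries, by group (x axes; WT and KO organoids with vehicle, AA or PGE2), at intervals over a listed gene start (left) and on chromosome X (right); circles are replicate 1 and squares replicate 2. KO PGE2 replicate 2 is the lowest library at starts (0.137) and the highest on chromosome X (0.114), and replicate 1 lies near the vehicle libraries in both panels.

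Width set the PGE2 libraries apart as well. In the 9359 intervals under 1 kb wide, the median score was 0.139 in replicate 1 and 0.133 in replicate 2, above the other 10 libraries (0.0972 to 0.101). Replicate 1 was the highest of the 12 libraries in 33.3% of these intervals and replicate 2 in 33.5%, and no other library in more than 8.99%. Of the narrow intervals 27.1% were higher in both PGE2 libraries than in both vehicle libraries, 28.0% in replicate 1 alone and 25.9% in replicate 2 alone, against 15.1%, 18.2% and 16.5% of the intervals at least 1 kb wide. At an unadjusted p under 0.05 in limma, 19.5% of the narrow intervals were higher with PGE2, against 2.90% of those at least 1 kb wide. In the 628 intervals of 500 to 700 bp, replicate 1 had a median of 0.354 and replicate 2 of 0.129, beside 0.0970 to 0.108 in the other 10 libraries. The intervals of Gm40363, 2210408I21Rik, Gm45871, Sulf2 and Zfc3h1, 5 of the 10 named higher ones, were under 1 kb, as were 6 of the 10 named lower ones. The sources used here do not say in which library each interval was called, and the part of that step in these values was not tested. With only intervals at least 1 kb wide in the fit, an alternative chosen after seeing the data, 5 intervals passed in limma, all higher: Smo, 9230019H11Rik, Ssbp3, Mdga2 and Gm39469.

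**Figure D5:**
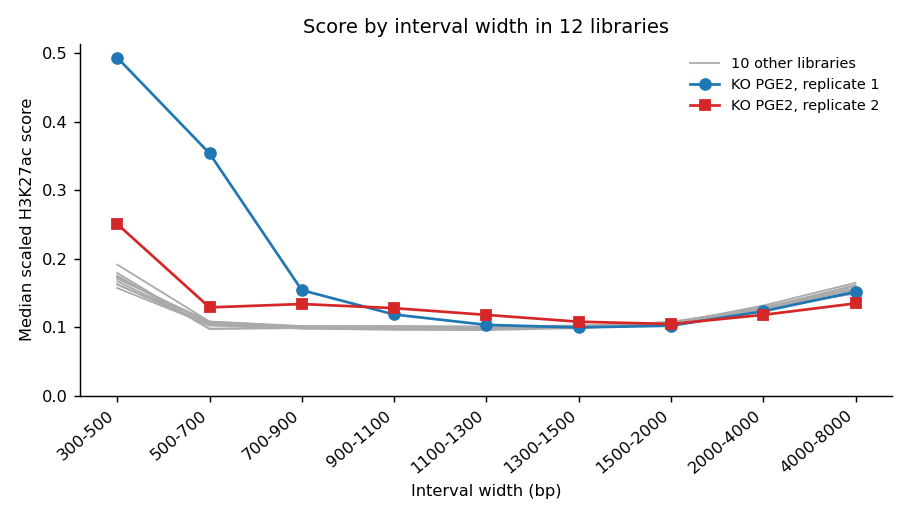
Median scaled H3K27ac score (y axis) by interval width in bp (x axis) in the 12 libraries; lines with symbols are KO PGE2 replicate 1 (circles) and replicate 2 (squares) and grey lines the other 10 libraries. Below about 1 kb both PGE2 libraries lie above the rest (0.354 and 0.129 at 500 to 700 bp), and replicate 2 lies lowest in the widest class.

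The test of whether the KO change differed from the WT change passed at 0 of 166465 intervals in limma (0% of those tested), with 10264 at an unadjusted p under 0.05 (6.17%). PGE2 against vehicle in WT organoids also passed at 0 intervals, with 9922 at that level (5.96%). The KO and WT comparisons share no library. The genotype difference passed at 1 interval after quantile normalization, at 26 without KO PGE2 replicate 1 and at 7 without KO PGE2 replicate 2.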

How the data were processed

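H3K27ac was profiled by CUT&RUN in 12 libraries of mouse intestinal organoids, in 6 groups of 2. The authors deposited a peak score for each interval in each library, a signal that is never negative. The submitters' processing notes name SEACR, MACS2 and the build mm10. How reads were aligned, the settings, the normalization of the signal and whether interval starts count from 0 or 1 are not given in the sources used. Coordinates are as deposited. The SEACR intervals (166517, median width 1759 bp) were used; rows marked EP4KO were read as Ptger4 KO. The depth behind the scores is unknown, so no counting interval is given, and 2 libraries per group limit the precision.

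Each library was divided by its median and multiplied by the mean of the 12 medians (0.116). Values were analysed as log2(scaled score + 0.0583), where the pseudocount is percentile 10 of the scaled scores above 0. An interval was kept if 2 or more libraries exceeded that value (166465 were). limma 3.58.1 (R 4.3.3) fitted 6 group means to the 12 libraries (lmFit and eBayes with a trend; 6 residual and 16.9 prior degrees of freedom), two-sided, with Benjamini-Hochberg adjustment over all intervals kept and a threshold of 0.05. The fit was tested on simulated data. The difference of each PGE2 replicate from the mean of the vehicle log2 values is given apart, and log2 changes carry standard errors (SE). An interval was assigned to the nearest of 21631 protein-coding gene spans of GRCm38.p6 within 50 kb, which 78.4% of intervals had; "listed start" means a start in the RefSeq promoter table, which is not complete. No exons or introns were given.

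Named intervals were those of Ptger4, in each direction the 10 with the smallest p, no overlap between the groups and a gene, the 3 genes of smallest p in each of 21 lists (not all are printed) and the 8 strongest intervals. 1 interval that came up under this rule is not reported here, and the next by p took its place. The other genes printed with values (such as Ptger2, Ptger3, Ptgs2, Ptges, Fos, Junb, Lgr5, Egfr, Btc, Ptch1 and Gli2) were chosen for their role after values were seen, as were the genes whose promoters are shown. The comparison, members and lists were chosen with earlier results of these data known, so no list is tested and none is independent evidence. The alternatives were no scaling, quantile normalization, pseudocounts 4 times smaller and larger, no filter, only intervals above the median mean score, only the libraries compared, no trend, array weights, a replicate block, all intervals of a gene for the lists, each compared library left out, and, chosen after seeing the data, only intervals at least 1 kb wide.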

Additional observations from a re-analysis of the deposited data

How the results depend on the processing

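The count of intervals that passed in KO PGE2 against KO vehicle was 1 and stayed 1 with the smaller pseudocount, no filter, array weights or a replicate block. It was also 1 with the larger pseudocount, where the filter, set at the pseudocount, left only 9534 intervals to test. It was 0 without scaling, 3 after quantile normalization (9230019H11Rik and 2210408I21Rik higher, Ly6c2 lower), 0 with only intervals above the median mean score, 0 with only the libraries compared, 0 without the trend and 5 with only intervals at least 1 kb wide. After quantile normalization the log2 changes of 2210408I21Rik and Ly6c2 were equal and opposite (0.52 and -0.52), so they may not be separate calls. The Ly6c2 change had the other sign (0.31) in the fit without KO PGE2 replicate 1. Leaving out 1 library gave 0 to 83: 83 without KO PGE2 replicate 1 (65 higher and 18 lower), 1 without KO PGE2 replicate 2 and 0 without KO vehicle replicate 1 or replicate 2. The left-out libraries leave an arm of 1, which is assumed to vary like the other groups. At an unadjusted p under 0.05 the fit without scaling had 14445 intervals and that with only the 4 compared libraries 8262.

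The difference between the KO and WT changes passed at 0 intervals, at 1 after quantile normalization, and at 0 to 26 when 1 library was left out (26 without KO PGE2 replicate 1 and 7 without replicate 2). With a replicate block the counts were 1 and 0. Across intervals, the difference between replicate 1 and replicate 2 correlated at r = 0.00118 between the PGE2 and vehicle groups. This value cannot tell whether libraries of the same number share a mouse or culture, which the labels leave out.

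Of 79 named intervals under these alternatives, 6 values changed sign, 14 gained and 7 lost their call, and 1092 kept both. The 7 losses were all at Smo. The 79 did not include the strongest intervals of all or the Ptger4 intervals away from its start. Some of those Ptger4 intervals had opposite signs in the PGE2 replicates, such as 5237276 to 5239274 (-0.16 in replicate 1 and 0.39 in replicate 2). The count of sign changes therefore does not cover every named interval. The sign changes counted all came from leaving out a library, and their cause was not tested. With 1 library left out, the log2 change ran from -0.84 to 0.13 for Ptger4 at its start, from -1.22 to 0.23 for Ptgir and from -0.88 to 0.013 for Csf1r (each highest without KO vehicle replicate 2), from -0.21 (without KO vehicle replicate 1; -0.048 without PGE2 replicate 2) to 0.70 for Lyz2, and from -0.58 to 0.044 for Ptgdr (highest without PGE2 replicate 2). Of the 21 list medians, 15 moved by more than the SD between the replicates without scaling, 6 with all intervals of each gene and 2 after quantile normalization. The larger pseudocount gave no value for the Paneth and fibroblast lists.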
